A study of Rattus norvegicus with 53 samples.

Results

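The comparison was between whole eyes with a high and with a low mitochondrial RNA share in HS rats, a population founded by crossing inbred strains and kept outbred since. For each of the 51 titled eyes (of 53 samples in all), the deposited log2 values were turned back into RSEM expected counts, and the counts of genes on the mitochondrial chromosome (MT) were divided by all counts of the eye. The 17 eyes with the largest share formed the high share set and the 17 with the smallest the low share set, so 34 of 51 eyes were compared and the 17 middle eyes were kept aside. Every eye came from a different rat, was frozen whole and had its extraocular muscles removed before RNA extraction, and no treatment separates the sets in the labels. Some rats of the study had taken nicotine and some had been breeders, but the labels tell neither the exposure nor the age or sex of the rat behind each eye. The eyes were chosen by the mitochondrial share, a value measured in the same libraries as the genes. The p-values below are therefore about association across eyes and not about an intervention.

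Mitochondria carry a small circular genome that is transcribed from both strands as long precursors, which are cut into the messages of respiratory chain subunits, the ribosomal RNAs and the transfer RNAs. All other mitochondrial proteins, among them most respiratory chain subunits and every protein of the mitochondrial ribosome, are encoded in the nucleus and imported. Photoreceptors, which are rich in mitochondria, belong to the most energy-demanding cells of the body, and the lens fibre cells that lose their organelles lie at the other extreme.

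The mitochondrial share of the 51 eyes ran from 0.418% to 8.91% of expected counts, a 21.3-fold range with a median of 3.15%. In the low share eyes it was 0.418% at the lowest, 1.23% at the median and 2.47% at the highest, with a mean of 1.39% ± 0.617 (SD, n = 17). The high share eyes had a lowest value of 3.85%, a median of 5.17% and a highest value of 8.91%, with a mean of 5.35% ± 1.24 (SD, n = 17). The medians of the sets were thus 4.21-fold apart. The cuts fell in a continuous series: the highest low share eye stood at 2.47% and the lowest middle eye at 2.62%, and the highest middle eye at 3.71% and the lowest high share eye at 3.85%. Since the share was used to choose the eyes, these values are a description and were not tested.

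**Figure D1:**
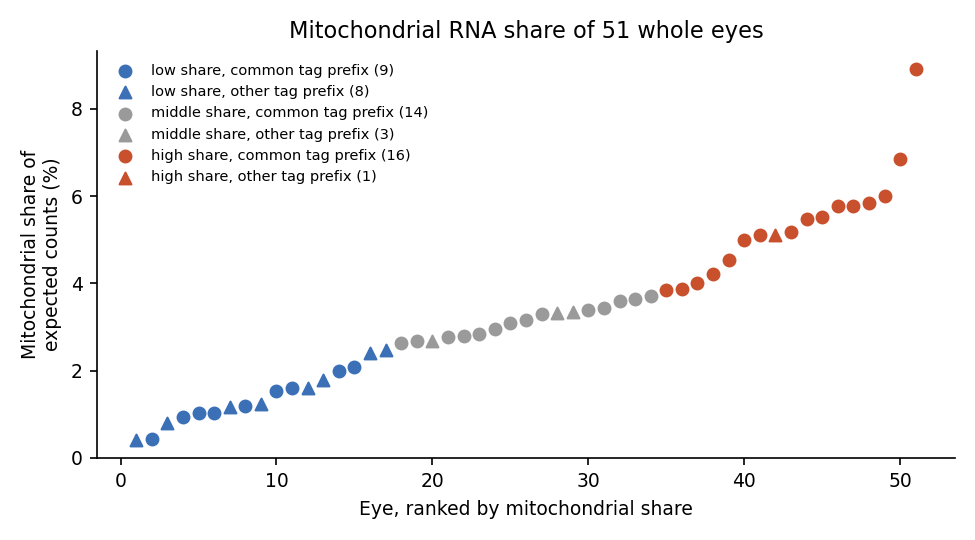
The y-axis is the mitochondrial share of expected counts in percent and the x-axis the rank of each of the 51 eyes, with color for the low, middle and high share sets and shape for the tag prefix. The share rises without a break from 0.418% to 6.85%, and 1 eye stands above at 8.91%.

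Total expected counts per eye ran from 9109084 to 42146827. Over the 34 eyes no library measure tested differed between the sets at an adjusted p of 0.05 in a two-sided permutation test (100000 permutations, Benjamini-Hochberg over 4 measures). The log2 of the non-mitochondrial total was 23.9 in the high share eyes and 24 in the low share eyes (difference -0.13, adjusted p = 0.517). Without the 3 deepest eyes the difference was -0.30 (adjusted p = 0.0108). None of these 3 is a low share eye, so this step takes deep eyes out of the high share set only. With all eyes kept, the median non-mitochondrial total was 15211056 in the high and 17991622 in the low share eyes. Over the 51 eyes the share and the log2 total had a Spearman rho of -0.33 (permutation p = 0.0184, adjusted p = 0.0738). The Pearson r was -0.17 (permutation test, adjusted p = 0.321). In the high and low share eyes, 13931 ± 110 and 13836 ± 167 genes (SD, n = 17 each) reached 1 CPM (counts per 1000000; permutation p = 0.0582, adjusted p = 0.233). The rat tags did differ. The most common tag prefix, whose meaning the labels do not give, was on 16 of 17 high share eyes and 9 of 17 low share eyes (two-sided Fisher's exact test, p = 0.0167), and its 39 eyes had a median share of 3.43%, against 2.10% in the 12 others. Counts of calls are therefore also given within the common prefix, and its part in the result was not tested. A corrected label was carried by 5 high and 3 low share eyes (Fisher's exact test, p = 0.688).

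Some nuclear genes divided the eyes into 2 separate groups, the middle eyes included. Gpbp1, which encodes a protein that binds GC-rich promoters had no value between 75.2 and 116 CPM. It was picked from the named genes with the smallest p in the comparison, so that all 17 high share eyes lay above this gap and all 17 low share eyes below it follows from the choice of the gene. The 17 middle eyes did not enter that p, but the gap was placed as the widest spacing of Gpbp1 values over all 51 eyes. That the middle eyes avoid the gap is therefore a description and no separate check. Of the middle eyes, 8 had 43 to 68.7 CPM and 9 had 116 to 185 CPM. Their shares overlapped, from 2.79% to 3.71% above the gap and from 2.62% to 3.43% below it. In 82 of 13880 genes (0.591%) every one of the 26 eyes above the gap exceeded every one of the 25 eyes below it, and in 0 genes was the order the opposite. All 82 were called higher in the high share eyes, an outcome nearly fixed by how they were picked. The upper eyes hold all 17 high share eyes and the lower eyes all 17 low share eyes. Gpbp1, which defined the gap, is among the 82. Of the 26 upper eyes 23 had the common tag prefix, and of the 25 lower eyes 16. The gap was seen after the values were, and high share and the upper group cannot be told apart in a comparison of the high with the low share eyes.

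Mitochondrial transcripts did not differ by one common factor between the sets. The deposited table has 37 genes on MT, of which 15 were above 0 in at least 1 eye and 22 were at 0 in every eye. The table pairs none of them with a name, so each is given by its start on MT in Rnor_6.0. The ratio of mean CPM of all counts, high over low, ran from 1.88 to 18.3 with a median of 4.87. In 9 of the 15 genes the ranges of the sets did not overlap, which the choice of eyes favors, so no test was made.

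The gene at 9870 had the largest ratio, 18.3. It had 4.86 CPM at the lowest, 11.8 at the median and 35.9 at the highest in the low share eyes, and 142, 230 and 419 CPM in the high share eyes. The other 4 with ratios above 10 start at 10167 (13.5), 3904 (13.3), 14061 (12.4) and 9451 (12.2). At the other end, the gene at 68 had a ratio of 1.88, from 55.4, 373 and 850 CPM in the low share eyes to 559, 731 and 1254 CPM in the high share eyes, and these ranges overlapped. The genes at 7006 (2.18), 8600 (2.58), 14136 (2.63) and 11736 (2.90) were the others under 3-fold.

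The makeup of the mitochondrial fragments also differed between the sets. The gene at 5323, which supplied the most fragments, took a median of 19.8% of mitochondrial counts in the low, 27.1% in the middle and 29% in the high share eyes. The gene at 7006 went the other way, with medians of 18.9%, 10.2% and 9.99%. The gene at 3904 made up 1.37%, 4.02% and 5.14%. Its middle eyes were spread from 0.846% to 5.83%, below the lowest low share eye (0.876%) and above the highest high share eye (5.55%), so their median stands for no common level. These are shares of fragments, not corrected for transcript length, so they do not compare the numbers of transcripts of different genes.

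**Figure D2:**
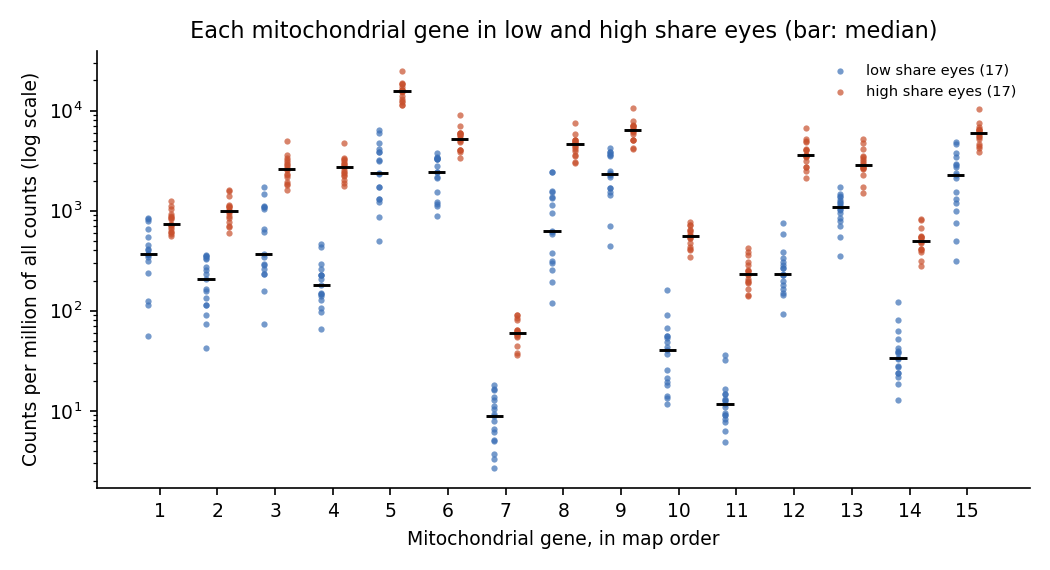
The y-axis is CPM of all counts on a log scale and the x-axis the 15 detected mitochondrial genes in map order, with a point for each of the 17 low and 17 high share eyes and a bar at the median. The distance between the sets differs from gene to gene, from a ratio of means of 1.88 for the gene numbered 1 to 18.3 for the gene numbered 11.

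Nuclear genes differed widely between the sets, with many genes higher in the high share eyes and fewer lower, most of them by less. For these genes each eye was rescaled to 1000000 counts without the MT genes, and log2 of CPM plus 1 was compared with limma's moderated test over the 13880 genes whose median over the 51 eyes reached 1 CPM, adjusted by Benjamini-Hochberg. At an adjusted p of 0.05, 2620 genes were higher in the high share eyes, 18.9% of those tested, and 687 were lower, 4.95%. At an unadjusted p under 0.05 there were 4849 genes, 34.9%. The median difference of the higher genes was 0.60 on the log2 scale and reached 4.74, and 566 of them were more than 2-fold apart. The median of the lower genes was -0.29, and 641 of the 687 were under 1.5-fold, but the lowest, at -5.69, was the difference farthest from 0 in either direction. The ranges of the sets did not overlap for 330 higher genes (2.38%) and 1 lower gene (0.0072%). Over all genes the median difference was -0.02. These are relative values within the nuclear total, and in a whole eye fewer cells of a type and less RNA per cell cannot be told apart.

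The split between higher and lower genes depended on the scaling, with 79.2% of calls higher here, 58.8% with median-of-ratios scaling and 64.1% when the 20 most abundant genes were left out of the total. Within the 25 eyes of the common prefix 2445 genes were higher and 719 lower, and 2716 of the 3307 calls were kept. With the prefix as a covariate over the 34 eyes the counts were 2239 and 725.

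**Figure D3:**
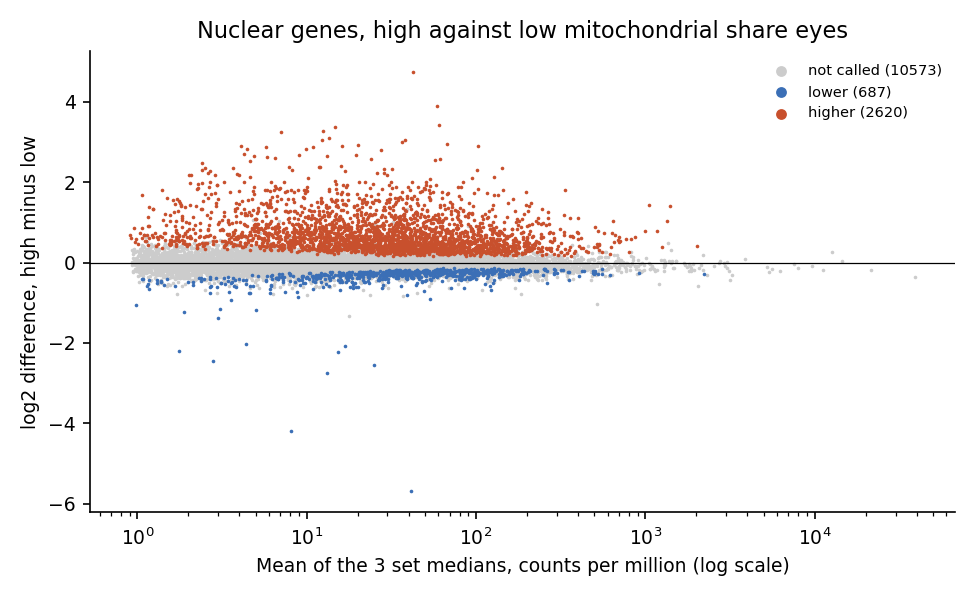
The y-axis is the log2 difference of high minus low share eyes and the x-axis the mean of the 3 set medians in CPM on a log scale, with a point for each of 13880 nuclear genes. The 2620 higher genes spread up to 4.74, whereas most of the 687 lower genes stay close to 0, with 14 beyond 2-fold and the lowest at -5.69.

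Gene names could be given to 785 of the deposited genes, 778 of them genes whose expression the study had tied to nearby DNA variants in these same eyes, so named genes are not a random sample. Of the 711 named genes tested, 85 were higher (12%) and 32 lower (4.5%), and 9 (1.27%) had ranges that did not overlap, each of them higher in the high share eyes.

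Ppp1cb encodes a catalytic subunit of protein phosphatase 1 and starts at 23581052 on chromosome 6 of Rnor_6.0. Its level was 52.0 CPM at the lowest, 90.4 at the median and 168 at the highest in the low share eyes, and 218, 309 and 421 CPM in the high share eyes. Every high share eye lay above every low share eye. The difference was 1.76 on the log2 scale (SE 0.124, n = 17 each, adjusted p = 2.16e-14), and 1.69 within the common prefix. The middle eyes spanned 68.4 to 359 CPM.

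Ptp4a1 encodes a small prenylated tyrosine phosphatase and starts at 37231291 on chromosome 9. It had 29.3, 53.7 and 71.3 CPM (lowest, median and highest) in the low share eyes and 92.5, 125 and 159 CPM in the high share eyes, again without overlap. The log2 difference was 1.28 (SE 0.095, adjusted p = 9.73e-14).

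The promoters of these genes in the RefSeq annotation of GRCr8 are shown since these genes separated the sets without overlap, with every CG dinucleotide in capitals, 5′ to 3′, from upstream of the gene start to just past it. That of Ppp1cb (chr6:29712786-29713085, minus strand) holds 36 CG in 300 bases, and that of Ptp4a1 (chr9:40718127-40718426, minus strand) holds 54.
Ppp1cb: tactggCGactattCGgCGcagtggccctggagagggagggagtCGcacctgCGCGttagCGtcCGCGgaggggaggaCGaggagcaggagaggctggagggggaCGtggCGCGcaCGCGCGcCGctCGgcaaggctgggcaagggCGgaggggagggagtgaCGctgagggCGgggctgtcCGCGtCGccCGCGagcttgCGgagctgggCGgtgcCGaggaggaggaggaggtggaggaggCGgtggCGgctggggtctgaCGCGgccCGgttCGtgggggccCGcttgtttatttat
Ptp4a1: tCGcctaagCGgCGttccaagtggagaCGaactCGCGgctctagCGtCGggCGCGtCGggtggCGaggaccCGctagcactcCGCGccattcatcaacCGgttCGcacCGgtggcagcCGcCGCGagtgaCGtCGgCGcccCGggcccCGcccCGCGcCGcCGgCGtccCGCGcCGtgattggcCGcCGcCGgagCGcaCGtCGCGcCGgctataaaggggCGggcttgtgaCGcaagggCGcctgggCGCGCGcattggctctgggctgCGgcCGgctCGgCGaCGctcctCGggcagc

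Gpbp1, at 43068677 on chromosome 2, had 9.07, 35.8 and 75.2 CPM in the low share eyes and 116, 151 and 193 CPM in the high share eyes. Its log2 difference was 2.30 (SE 0.203, adjusted p = 7.51e-12). The high share eyes were all on the upper side of the gap described above, and there Gpbp1 did not follow the share further, with a slope of 0.06 per doubling of the share (SE 0.085, adjusted p = 0.779 over 26 eyes). Below the gap it rose with the share by 0.86 per doubling (SE 0.096, adjusted p = 3.23e-07 over 25 eyes).

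Of the other named genes with the smallest p, LOC100910577 rose from a median of 0.243 CPM in the low share eyes, with 3.6 at the highest, to 7.93 CPM, with 5.61 at the lowest (log2 difference 2.69, adjusted p = 7.74e-17). Epm2aip1, which encodes a partner of laforin, went from a median of 180 to 365 CPM without overlap (1.10, adjusted p = 4.92e-13). Dipk2a, of the divergent protein kinase domain family, went from 23.3 to 52.1 CPM, also without overlap (1.09, adjusted p = 3.46e-12). Dhx36, a helicase of G-quadruplexes in DNA and RNA, went from 37.3 to 118 CPM, with 16 of 17 high share eyes above every low share eye (1.57, adjusted p = 2.58e-11). AABR07029605.1 rose from 13.9 to 55.1 CPM (1.88, adjusted p = 2.15e-12).

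Oxr1 and Guf1 were the other named genes among the 10 with the smallest p. Oxr1, the oxidation resistance gene, had 105, 159 and 208 CPM in the low share eyes and 215, 314 and 403 CPM in the high share eyes, without overlap (log2 difference 0.97, SE 0.092, adjusted p = 4.88e-11). Guf1, a GTPase of mitochondrial translation, had 9.92, 16.4 and 29.3 CPM against 26.2, 34.1 and 40.2 CPM, with 14 of 17 high share eyes above every low share eye (0.91, SE 0.095, adjusted p = 4.77e-10).

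Outside the rule for named genes, but among the genes of the study's candidate regions for eye pressure, Tmem135 and Plekhf2 were higher. Tmem135, a membrane protein with a part in mitochondrial dynamics, had 16.7, 34.2 and 46.3 CPM in the low share eyes and 43.1, 53.4 and 68.8 CPM in the high share eyes, with 15 of 17 above every low share eye (log2 difference 0.64, SE 0.089, adjusted p = 3.34e-07). Plekhf2, an endosomal protein, went from a median of 75.7 to 102 CPM (0.34, SE 0.086, adjusted p = 0.00219). The other tested genes of these regions, Ctsc, Tyr, Rab38, Angpt2, Mcph1 and Ndufaf6, had differences from -0.44 for Tyr to 0.08 for Ctsc and were not called.

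**Figure D4:**
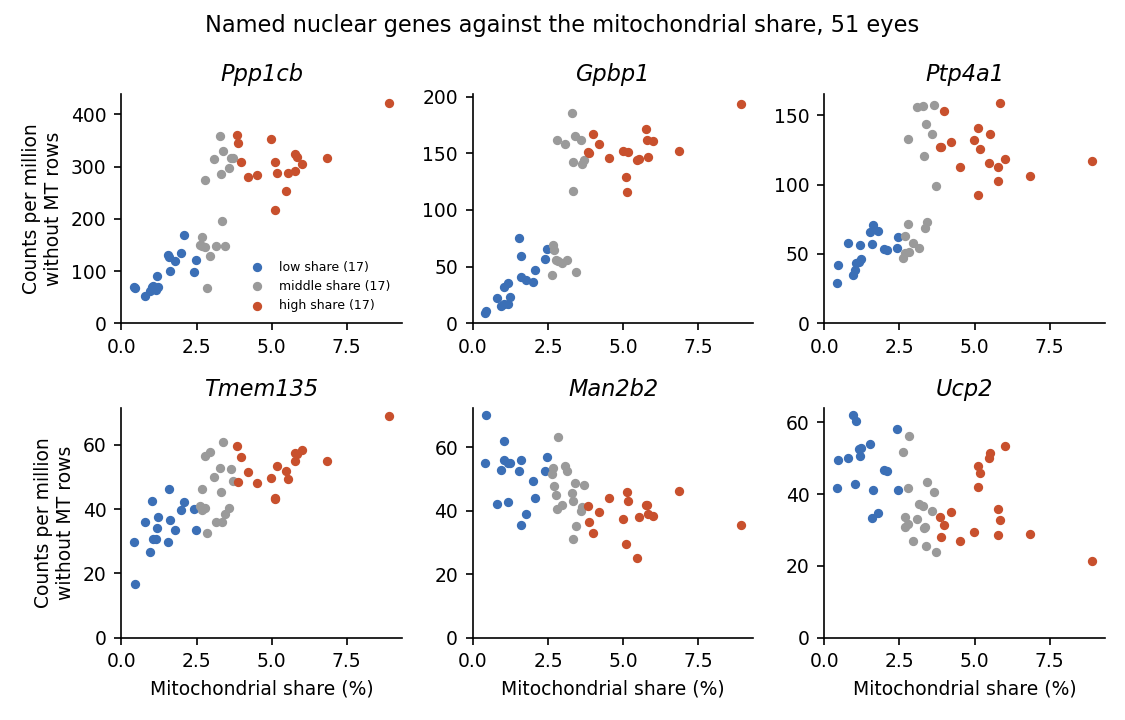
The y-axis is CPM without MT genes and the x-axis the mitochondrial share in percent, with a point for each of 51 eyes in 6 named genes. Gpbp1 has no value between 75.2 and 116 CPM and the middle eyes lie on both sides, whereas Man2b2 and Ucp2, lower in the high share eyes, overlap between the sets.

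The named genes that were lower in the high share eyes changed less, and each overlapped between the sets. Man2b2, a lysosomal mannosidase at 78939903 on chromosome 14, had 35.6, 52.8 and 70.0 CPM in the low share eyes and 25, 38.9 and 46.3 CPM in the high share eyes. All 17 high share eyes were below the low share median and 4 were below every low share eye (log2 difference -0.40, SE 0.082, adjusted p = 0.000157). Alyref, an adaptor of mRNA export, fell from a median of 33.9 to 26.8 CPM (-0.40, adjusted p = 0.000468). Zyx encodes the focal adhesion protein zyxin and had medians of 57.7 and 40.6 CPM, with 8 of 17 high share eyes below every low share eye (-0.47, adjusted p = 0.00147).

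Ucp2 encodes a carrier of the inner mitochondrial membrane. Its levels were 33.2, 49.6 and 61.9 CPM in the low share eyes and 21.5, 33.5 and 53.3 CPM in the high share eyes, and 8 of 17 high share eyes lay below every low share eye (log2 difference -0.41, SE 0.107, adjusted p = 0.00317). Rd3, which acts on guanylate cyclase in photoreceptors, had medians of 93.7 and 69 CPM (-0.42, adjusted p = 0.00441). Vegfb, a growth factor gene, had medians of 24 and 18.4 CPM (-0.37, adjusted p = 0.00944), and Foxd1, a forkhead transcription factor gene, 5.42 and 2.83 CPM (-0.61, adjusted p = 0.00716). The lipid transporter gene Abca3 (-0.31), the lipoprotein receptor family gene Lrp10 (-0.27) and the vitamin transporter gene Slc5a6 (-0.27) were lower as well. Without the eyes of corrected label Vegfb (-0.36), Foxd1 (-0.48) and Slc5a6 (-0.24) lost the call. Foxd1 also lost it within the common prefix (-0.49) and with voom weights (-0.67), and Vegfb when the share left out the largest MT gene (-0.30).

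For comparison with the pair above, the promoters of Alyref (chr10:106373346-106373645, minus strand) and Ucp2 (chr1:164251123-164251422, plus strand), the first 2 lower named genes by p with a single RefSeq promoter, hold 41 and 19 CG in 300 bases of GRCr8.
Alyref: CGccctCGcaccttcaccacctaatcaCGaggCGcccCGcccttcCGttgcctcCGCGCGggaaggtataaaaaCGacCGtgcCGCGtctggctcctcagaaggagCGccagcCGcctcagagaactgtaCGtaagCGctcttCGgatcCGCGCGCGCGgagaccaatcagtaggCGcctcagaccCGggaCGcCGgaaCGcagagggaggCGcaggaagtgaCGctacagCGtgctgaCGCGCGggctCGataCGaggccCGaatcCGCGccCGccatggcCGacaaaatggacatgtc
Ucp2: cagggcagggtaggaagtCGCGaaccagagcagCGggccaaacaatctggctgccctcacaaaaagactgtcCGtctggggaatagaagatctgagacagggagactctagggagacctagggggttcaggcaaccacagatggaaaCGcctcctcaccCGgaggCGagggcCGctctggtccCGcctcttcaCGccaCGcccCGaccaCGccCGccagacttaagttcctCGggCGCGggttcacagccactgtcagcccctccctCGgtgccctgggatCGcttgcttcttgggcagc

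A promoter was found for 68 of the 85 higher and 28 of the 32 lower named genes, with a median of 24 and 21 CG and a median GC content of 62.0% and 64.2%. The 470 uncalled named genes with a promoter had a median of 19 CG and 60.3% GC, and the 27457 genes with any listed promoter had 7.5 CG and 52.3% GC. Only 79.6% of all named genes tested had a promoter, under the 80% set for such a check, so a check of GC content over the named genes is void and no relation with the difference is given.

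Nuclear genes of the respiratory chain and of mitochondrial gene expression could be named in small part. Of the 205 listed, 11 could be named and all were tested, of which 2 were higher and 0 lower, beside 18.9% higher and 4.95% lower over all genes and 12% and 4.5% over the named genes. Their median difference was -0.02, as over all genes. Uqcrc2, a core subunit of complex III, went from 47.5, 108 and 139 CPM to 109, 136 and 169 CPM (log2 difference 0.47, SE 0.102, adjusted p = 0.000459). Mrpl18, of the large mitochondrial ribosomal subunit, had medians of 18.5 and 25.4 CPM (0.36, SE 0.106, adjusted p = 0.00883). Guf1, the GTPase of mitochondrial translation given above as higher, was not among the 205 listed. The complex I subunits Ndufb8 (-0.06) and Ndufb2 (-0.04), the ATP synthase subunit Atp5mc2 (-0.10) and the other 6 mitochondrial ribosomal genes, from -0.17 for Mrps18b to 0.14 for Mrpl45, were not called. The cytosolic ribosomal genes Rpl14 (-0.03) and Rpl17 (-0.04) were not called either.

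Cell type markers could be checked in part only, since the markers of rods, cones, lens, cornea, retinal pigment epithelium and muscle in the lists could not be named. Glul, the glutamine synthetase of Müller glia, was high in every eye, with medians of 2955 CPM in the low and 3058 CPM in the high share eyes (log2 difference 0.01, adjusted p = 0.951). Tyr, the pigment cell tyrosinase, had 5.0, 15.8 and 47.2 CPM against 2.19, 10.1 and 41.3 CPM (-0.44, SE 0.316, adjusted p = 0.33). The stromal proteoglycan Lum (0.15), the macrophage marker Cd68 (-0.35) and the hemoglobin gene Hbb (0.09) were not called, and their sets overlapped. Fmod, the other tested gene of the stromal list, had the opposite sign to Lum (-0.44, adjusted p = 0.059) and was not called either. In all, 28 listed genes were tested over all lists, and Uqcrc2 and Mrpl18 were the 2 called, beside 23.8% of all genes called in either direction. Of the 711 named genes, to which these 28 belong, 12% were called higher and 4.5% lower. With so few members named, a shift in the tissues of the eye was not tested.

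The share of genes called differed between chromosomes. On chromosome X, 205 of 447 tested genes (45.9%) were higher in the high share eyes, against 18.9% over all chromosomes, with a median difference of 0.26 over its genes. Chromosome 2 followed with 31.2% and chromosome 14 with 25.7%. The lowest shares were on chromosomes 12 (5.05%), 19 (9.90%), 20 (10.2%) and 10 (10.3%). On chromosome 12 more genes were lower (7.37%) than higher. Genes on a chromosome are not independent, so no test was made. By level, with the genes in 3 bins of equal size, 14.3% of the lowest, 20.6% of the middle and 21.7% of the highest bin were higher.

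**Figure D5:**
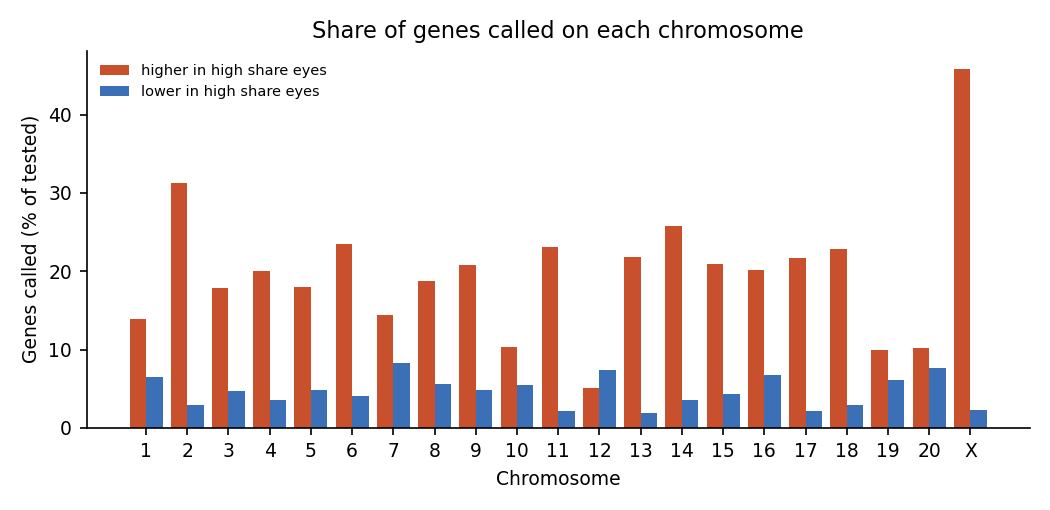
Bars give the percent of tested nuclear genes on each chromosome that were higher or lower in the high share eyes at an adjusted p of 0.05. Chromosome X stands highest at 45.9% higher, and chromosome 12 lowest at 5.05%.

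The 17 middle eyes, which the rule did not use, gave slopes on the share of the same sign as the comparison for 2168 of the 2620 higher genes (82.7%) and for 593 of the 687 lower genes (86.3%). Over all genes 45.9% of these slopes were positive. Alone, the middle eyes called 9 genes higher and 18 lower per doubling of the share at an adjusted p of 0.05 in limma, with 3043 at an unadjusted p under 0.05. Of the 27 called at the adjusted p, 9 were among the 2620 higher genes and 0 among the 687 lower genes. The direction in the middle eyes was not part of this count. These eyes lie on both sides of the Gpbp1 gap, 9 above and 8 below, so their slopes take in differences between the groups as well as within them.

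Counts of calls within the groups were unequal. Among the 25 eyes below the gap, where the share ran from 0.418% to 3.43%, 1246 genes rose and 178 fell with the share. There 93.4% of the higher and 93.3% of the lower genes kept their sign, against 41.7% positive slopes over all genes. These eyes include the 17 low share eyes behind the calls. Of the 2620 higher genes 1113 were called higher there and 0 lower. Of the 687 lower genes 35 were called lower below the gap and 1 higher. Among the 26 eyes above it, 17 of them the high share eyes, the share covered fewer doublings, from 2.79% to 8.91%, and 70 genes rose and 23 fell. Only 11 of the 2620 higher genes were called higher there, and 3 were called lower. Of the 687 lower genes 1 was called lower and 5 were called higher. The sign was kept by 77.1% of the higher and 43.2% of the lower genes, against 69.9% positive slopes over all genes. Whether slopes differ between the groups was not tested. With the side of the gap as a covariate over all 51 eyes, 1727 genes rose and 307 fell per doubling of the share. The call was then lost by 12 named genes: LOC100910577, Dipk2a, Mrpl18, Man2b2, Alyref, Zyx, Ucp2, Lrp10, Rd3, Slc5a6, Foxd1 and Vegfb. Ppp1cb (0.48 per doubling, adjusted p = 0.000147), Dhx36 (0.51, adjusted p = 0.00073), Oxr1 (0.30, adjusted p = 0.00056) and Guf1 (0.32, adjusted p = 0.00287) rose with the share below the gap. Above it none of these 4 was called, with slopes of 0.12 (SE 0.107) for Ppp1cb, 0.16 (SE 0.153) for Dhx36, 0.22 (SE 0.105) for Oxr1 and -0.04 (SE 0.101) for Guf1. LOC100910577 and Dipk2a were called on neither side in limma. Their slopes below the gap were 0.21 (adjusted p = 0.317) and 0.05 (adjusted p = 0.733). Mrpl18 and the lower genes Man2b2, Alyref, Zyx, Ucp2, Lrp10, Rd3, Slc5a6, Foxd1, Abca3 and Vegfb were called on neither side as well. The smallest adjusted p among them was 0.052, for Abca3 below the gap (slope -0.21).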

How the data were processed

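Whole-eye RNA of HS rats had been sequenced by the authors as paired-end reads. The authors aligned the reads to Rnor_6.0 with STAR in 2 passes, matched samples to DNA genotypes with GATK ASEReadCounter and estimated gene counts with RSEM, per the labels and the study's methods; tool versions were not given in the sources used here. For 32576 genes the authors deposited RSEM expected counts, with 1 added, on a log2 scale and unscaled. The scale was read from the values, since 89.8% of the low values lay within 0.01 of a whole number once the log2 was undone. RSEM divides fragments that match several genes, so near-identical genes share counts.

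The deposited log2 values were undone, MT genes were left out, each eye was scaled to 1000000 and log2 of CPM plus 1 was taken, which narrows differences of genes at low level. Genes whose median over 51 eyes reached 1 CPM were compared with limma 3.58.1 (R 4.3.3), its prior variance following the level of the gene, and Benjamini-Hochberg adjustment at 0.05. Python 3.11.15 with numpy 2.4.6, pandas 2.3.3, scipy 1.17.1 and matplotlib 3.10.9 did the rest, and the fit was checked on simulated data. Each eye is from a different rat. Grouping eyes by a measured value makes the sets not groups of the study. Depth, 9109084 to 42146827 counts per eye, limits the precision of genes near 1 CPM.

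Genes were named by start position from the study's list of 778 genes with expression tied to nearby variants, and for 8 candidate region genes within 500 bp. The rule for named genes takes every MT gene, up to 4 called members of each list with the smallest p in each direction, the first 2 symbols of each cell type list, and the 10 named genes with the smallest p in each direction. The members, lists and tests were chosen with earlier results of these data known. Alternatives covered scaling, pseudocount (0.1), filters, weights, cuts of 13 and 25 eyes, a continuous share, covariates and left-out eyes. The Y gene covariate, the middle eyes alone and the fits by side of the Gpbp1 gap were chosen after seeing the data. Since the gap was defined by Gpbp1, its own slopes within the groups are limited by that choice. The 2 samples that the authors removed were not analysed here.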

Additional observations from a re-analysis of the deposited data

How the results depend on the processing

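The number of higher genes stayed between 2095 and 3029 over the alternatives listed at the outset, and 0 of the 3307 calls changed direction where tested again. The number of lower genes moved from 687 to 1740 with median-of-ratios scaling, 1422 when scaled without the 20 most abundant genes, 1959 with 25 against 25 eyes, 2362 with the share as a continuous term over 51 eyes, 2379 with the percent in the 20 most abundant genes as covariate, and 342 without eyes of corrected label. The higher genes were then 58.8%, 64.1%, 57.1%, 56.2%, 53.1% and 88.0% of calls, against 79.2%, and the cause was not tested. Among alternatives chosen after seeing the data, counts of higher and lower genes were 9 and 18 in the middle 17 eyes, 70 and 23 above the Gpbp1 gap, 1246 and 178 below it, and 1727 and 307 with its side as covariate, in fewer eyes or with a term that takes up part of the share. Above the gap 3 of the higher genes were called lower and 5 of the lower genes higher, and below it 1 lower gene was called higher. Among the called genes that the rule names, opposite slopes, none called, were found above the gap for Ptp4a1 (-0.12), Guf1 (-0.037), Uqcrc2 (-0.054), Ucp2 (0.10), Lrp10 (0.076), Rd3 (0.15), Slc5a6 (0.17) and Foxd1 (0.0096). Below the gap this held for Vegfb (0.0095). The percent of counts in the 20 most abundant genes differed by -1.58 points, high minus low, and by 0.245 with 25 against 25 eyes, neither called. Without the 3 deepest eyes the log2 total differed by -0.301, high minus low (permutation test, adjusted p = 0.0108), with 2545 genes higher and 625 lower. That step takes deep eyes out of the high share set only, which by itself lowers the mean total of that set. When the share left out the largest MT gene, or used a total without MT and the 20 most abundant genes, 16 of 17 high and 16 of 17 low share eyes were the same. The covariate for lens genes could not be run because no lens gene could be named. No paired analysis was possible because each eye is from a different rat and replicate numbers only name the eyes.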

Other observations

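Genes of chromosome Y, of which none entered the comparison of 13880 genes, were summed in each eye. The sum was above 50 CPM in 7 of 17 high, 10 of 17 middle and 6 of 17 low share eyes (high against low, two-sided Fisher's exact test, p = 1). Among the eyes above 50 CPM it was 66.0 to 96.6 CPM in the low, 93.2 to 193 CPM in the middle and 123 to 197 CPM in the high share eyes, so the high and low share eyes did not overlap. Among the other eyes it was 0.131 to 2.89 CPM in the low and 1.02 to 3.90 CPM in the high share eyes, which overlapped. With this side of 50 CPM as a covariate, chosen after seeing the data, 2645 genes were higher and 682 lower.

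Genes without a name held the smallest p in each direction. ENSRNOG00000053366, at 84950210 on chromosome 1 of Rnor_6.0, had 0, 0.315 and 1.16 CPM (lowest, median and highest) in the low share eyes, 0.381, 7.73 and 13.7 CPM in the middle eyes and 9.39, 13 and 15.5 CPM in the high share eyes (limma, adjusted p = 1.15e-22). ENSRNOG00000019848, at 151724654 on chromosome 3, had 29.8, 47.3 and 73.7 CPM in the low share eyes and 163, 214 and 292 CPM in the high share eyes (log2 difference 2.12, SE 0.084).

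In the other direction ENSRNOG00000058793, at 34945317 on chromosome 17, had 6.76 to 29.9 CPM in the low share eyes and was under 1 expected count in 16 of 17 high share eyes and 7 of 17 middle eyes. ENSRNOG00000049814, at 152259156 on chromosome 3, had a median of 90.3 CPM in the low share eyes and was under 1 expected count in 13 of 17 high share eyes. For each of these genes, 0 of 7 counts from 1 to 200 were whole to within 0.01, and so their levels depend on how RSEM divided shared fragments. No fold is given for them here, since their fitted difference depends on the pseudocount. That of ENSRNOG00000049814 is the -5.69 given above as the lowest difference.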
